A study of Mus musculus with 10 samples.

Results

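The arrays described here are 5 membranes hybridised with splenocyte RNA of mice carrying the transgene CD22DE12, out of 10 arrays in the series. They were picked by a name that their deposited spot data share. Going by the times in the file headers, their images were quantified in the same sitting as the wild-type arrays. The other arrays were 2 transgenic arrays of a second sitting and 3 wild-type arrays, and no comparison with wild type was made. All mice were of the FVB background and 6 weeks old, and the labels name no other allele or treatment. The promoter that drives the transgene, and whether each array came from a separate mouse, are not stated in the labels used here, so all tests below measure the spread between these 5 samples, which may be technical. The labels give no replicate number, and the arrays are called transgenic replicates 1 to 5 in the order of their records.

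Splenocytes are a mixture of B cells, T cells, myeloid cells and stromal cells, and in the mouse the spleen also keeps red-cell precursors through adult life. CD22 is a B cell surface receptor that dampens signalling by the B cell receptor. Because each sample is a mixture, a gene made mostly by a single cell type can differ between spleens through the number of those cells or through the RNA in each, and in these bulk samples fewer cells of a type and less RNA per cell cannot be told apart. As a check of the labelled tissue, lists of B cell, T cell and myeloid genes were looked at. All 5 measured genes of the B cell list (Cd22, Blk, Pax5, Cd40, Pou2af1) stood above background on all 5 arrays. All 5 of the T cell list and all 6 of the myeloid list did as well. So did 429 of all 597 genes (71.9%) and 5 of 7 genes of nervous system, liver and gut, so that standing above background tells little about the tissue here.

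Each membrane carried 597 named genes, each as 2 neighbouring spots of the same cDNA. On each array both spots of a gene see the same labelled sample, so their difference measures the spot alone, and the spread between arrays can be set against it. Levels are given as log2 of normalized grey levels after background correction with an offset of 50 grey levels added. This offset compresses the changes of dim genes, so differences on this scale understate fold changes. Between 506 and 550 of the 597 genes were above background on an array, and the median signal above local background was 13.8 to 18.7 grey levels. The 10 pairs of arrays had Pearson correlations of 0.89 to 0.95 across genes.

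Of the 597 genes tested, 158 (26.5%) differed between the 5 arrays by more than their duplicate spots allow, at an adjusted p below 0.05 in limma's moderated F test. Such a call says that the arrays differ, and whether the mouse, the RNA or the hybridisation differed cannot be told apart. The count moved with the background correction, from 48 genes with no offset and 50 with plain subtraction to 306 with no correction. Across all genes the median SD between arrays was 0.080 log2 units, and the median SD of duplicate spots was 0.074. The SD between arrays was set against the SD that a mean of 2 spots would have from spot noise alone. This ratio had a median of 1.55, and it exceeded 1 in 432 of 597 genes. Pooled over genes, differences between arrays made up 57.6% of the variance of single spots. Brightness mattered: 150 of the 429 genes above background on all 5 arrays were called (34.97%), against 8 of the other 168 (4.8%). The share of 26.5% set beside gene lists below includes these 168 genes, so it is not matched to lists of mostly bright genes. At the threshold, Clu and Bax were the last genes called, with adjusted p of 0.048 and 0.0498. Klf3 and Il1r1 were the first not called, with adjusted p of 0.0515 and 0.0523 in the same limma test.

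**Figure D1:**
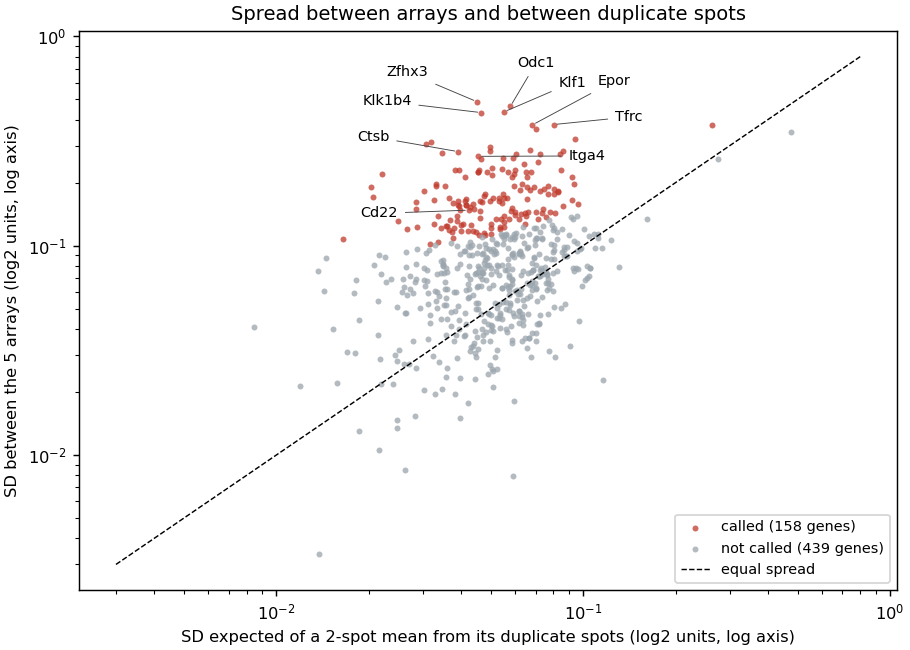
Each point is 1 of 597 genes, with the SD expected of a 2-spot mean from its duplicate spots on the x axis and the SD between the 5 transgenic arrays on the y axis (both in log2 units on log axes). Red points are the 158 called genes and the dashed line marks equal spread. Zfhx3, Odc1, Klf1 and Klk1b4 lie highest above the line among the labelled genes.

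The genes of red-cell formation spread the most of the cell type lists. All 4 measured erythroid genes were called, against 26.5% of all genes and 34.97% of those above background on all 5 arrays. Their median SD between arrays was 0.38, against 0.080 over all genes. All 4 were highest on replicate 3 or 5 and lowest on replicate 1 or 4. Klf1, the transcription factor that switches on globin and other red-cell genes, stood at 6.50, 6.79, 7.08, 6.18 and 7.26 on replicates 1 to 5 (SD 0.44, adjusted p = 1.75e-06). Before normalization its signals above background were 42, 59, 92, 27 and 103 grey levels. Replicates 3 and 5 were thus the brightest for Klf1 and replicate 4 the dimmest, with replicate 2 between.

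Epor, the receptor through which erythropoietin keeps red-cell precursors alive, had levels of 6.13, 6.70, 6.85, 6.22 and 6.96 on replicates 1 to 5 (SD 0.38, adjusted p = 1.95e-05). Tfrc, the transferrin receptor that brings iron into red-cell precursors and other dividing cells, had levels of 5.84, 6.25, 6.73, 5.86 and 6.41 (SD 0.38, adjusted p = 3.7e-05). Both were low on replicates 1 and 4 and high on replicates 3 and 5, as for Klf1. Nfe2, a transcription factor of red cells and platelets, completes the list and moved least, with levels of 6.27, 6.44, 6.52, 6.49 and 6.58 (SD 0.12, adjusted p = 0.0315). The Nfe2 call was lost without replicate 1 (adjusted p = 0.522), without replicate 5 (adjusted p = 0.0551), with no offset (adjusted p = 0.174), with plain subtraction (adjusted p = 0.176) and after centring on membrane neighbours (adjusted p = 0.0752). Klf1, Epor and Tfrc were called under all 11 other settings tried for single genes, and their SD without any 1 array stayed between 0.26 and 0.50.

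**Figure D2:**
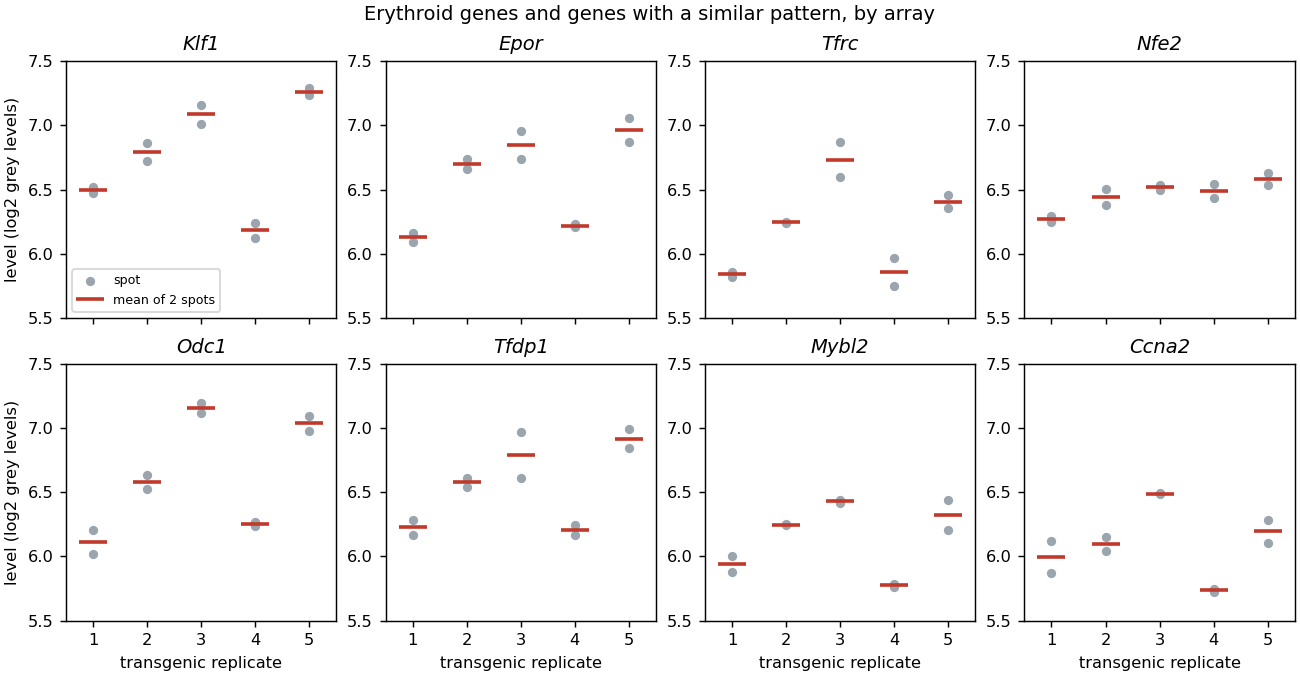
Levels (log2 grey levels, y axis) of 8 genes on transgenic replicates 1 to 5 (x axis), with grey points for the 2 spots of a gene and a red bar for their mean. All 8 genes are higher on replicates 3 and 5 than on replicates 1 and 4, by least for Nfe2, which has a range of 0.31 log2 units.

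Odc1, Tfdp1, Mybl2 and Ccna2 are described next because they were among the 20 genes of largest spread and were high and low on the same arrays, as seen from their values. Odc1, the rate-limiting enzyme of polyamine synthesis and printed on the membrane as a housekeeping gene, had levels of 6.11, 6.58, 7.16, 6.25 and 7.04 on replicates 1 to 5 (SD 0.46, adjusted p = 1.4e-06). Tfdp1, the partner protein of the E2F cell cycle factors, had 6.23, 6.58, 6.79, 6.21 and 6.92 (SD 0.32, adjusted p = 0.000321). Mybl2, a transcription factor of dividing cells, had 5.94, 6.25, 6.43, 5.78 and 6.32 (SD 0.27, adjusted p = 0.000174). Odc1, Tfdp1 and Mybl2 were each higher on replicates 2, 3 and 5 than on replicates 1 and 4. Ccna2, the cyclin of DNA synthesis and mitotic entry, had 6.00, 6.10, 6.49, 5.74 and 6.20 (SD 0.27, adjusted p = 0.000321), with replicate 4 lowest.

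Of 28 measured cell cycle genes 10 were called (35.7%, against 26.5% of all genes). Above background on all 5 arrays were 24 of the 28, and of all such genes 34.97% were called, close to the share of the list. Of those 10, 8 were highest on replicate 3 or 5 and lowest on replicate 1 or 4 (Ccna2, Ccnb1, Ccnb2, Ccne1, Ccnf, Cdkn1b, Cdkn2d and Rb1), a pattern held by 44 of all 158 called genes (27.8%). The group mixes cyclins, which drive division, with Cdkn1b, Cdkn2d and Rb1, which restrain it. The exceptions were Ccnd1, highest on replicate 1, and Rbl2, highest on replicate 2. Ccnf had levels of 5.75, 5.93, 6.34, 5.96 and 6.43 on replicates 1 to 5 (SD 0.29), and Ccne1 had 6.07, 6.35, 6.45, 5.93 and 6.45 (SD 0.23). The other 18 cell cycle genes did not pass the test, and the median SD of all 28 was 0.099. With no offset 5 members were called, against 48 of all 597 genes. With no background correction 16 were called, against 306 of all 597 genes. Gadd45a, a stress gene that slows division, had 6.05, 6.09, 6.33, 5.80 and 6.44 (SD 0.25, adjusted p = 0.000547). Gadd45a is not among the 28 and is counted in the apoptosis list. There 2 of 8 called genes were highest on replicate 3 or 5 and lowest on replicate 1 or 4.

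Likeness between genes was measured as the mean absolute difference of their deviations over the 5 arrays. Nearest to Klf1 among all genes were Tfdp1 (0.10 log2 units), Epor (0.13) and Mybl2 (0.14), against a median of 0.35 over all genes. Nearest to Odc1 were Tfrc (0.093), Epor (0.11) and Tfdp1 (0.13), against a median of 0.38. Nearest to Tfrc were Odc1 (0.093), Mybl2 (0.099) and Tfdp1 (0.11), against a median of 0.30. The nearest genes lie below the median by the way they were picked, so the medians give the scale only. They do not test whether genes moved together. These genes lie in 5 different blocks of the membrane, Klf1 and Tfdp1 sharing a block. After each gene was centred on its membrane neighbours, Klf1 had an SD of 0.43, Epor of 0.40, Tfrc of 0.38 and Odc1 of 0.45, and all 20 genes of the largest spread were still called. Neighbours were taken within a block. Odc1 lies in a block of only 3 genes, so for Odc1 the centring says little about local effects.

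The arrays also differed in technical values. The number of genes above background was 529, 546, 527, 550 and 506 on replicates 1 to 5. Replicate 5 had the fewest, while replicate 1, low for Klf1, Epor and Tfrc, and replicate 3, high for them, were close. Median signals above background were 15.9, 17.1, 15.97, 18.7 and 13.8 grey levels on the same arrays, and median local background was 51.2, 41.4, 51.2, 39.6 and 38.1 grey levels. In both of these, too, replicates 1 and 3 were close. The part of these values in the erythroid and cell cycle results was not tested.

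Transgenic replicates 6 and 7, which were quantified in the second sitting, were then normalized together with the 5 arrays. In that fit Klf1 was 6.49 on replicate 6 and 6.09 on replicate 7, Epor 6.63 and 5.99, and Tfrc 6.24 and 5.85. Mybl2 was 6.32 on replicate 6 and 5.74 on replicate 7, and Ccna2 was 6.29 and 5.74. All 4 erythroid genes and 22 of 28 cell cycle genes (78.6%) were higher on replicate 6 than on replicate 7, against 287 of all 597 genes (48.1%). These 2 arrays have no replicate of their own and carry no test.

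Promoters of 4 genes that moved together are printed because they let a reader look for shared letters. RefSeq (build GRCm38.p6) places the 250 bases before the start of Klf1 at chr8:84901732-84901981 on the plus strand, of Epor at chr9:21963577-21963826 on the minus strand, of Odc1 at chr12:17544623-17544872 on the plus strand and of Mybl2 at chr2:163054385-163054634 on the plus strand. Each is written 5′ to 3′ towards the start. Capitals mark the GATA letters AGATAA, also with T as the first or G as the last letter, to which GATA factors are known to bind, and the CACCC-type letters CCNCNCCC, which resemble the sites of Klf1 and its relatives. Both strands were searched, and overlapping matches were counted separately.
Klf1: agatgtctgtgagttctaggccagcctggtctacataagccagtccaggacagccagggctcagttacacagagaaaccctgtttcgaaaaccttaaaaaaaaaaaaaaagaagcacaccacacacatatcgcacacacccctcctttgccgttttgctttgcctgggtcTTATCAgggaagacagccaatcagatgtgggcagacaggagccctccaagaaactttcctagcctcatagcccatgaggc
Epor: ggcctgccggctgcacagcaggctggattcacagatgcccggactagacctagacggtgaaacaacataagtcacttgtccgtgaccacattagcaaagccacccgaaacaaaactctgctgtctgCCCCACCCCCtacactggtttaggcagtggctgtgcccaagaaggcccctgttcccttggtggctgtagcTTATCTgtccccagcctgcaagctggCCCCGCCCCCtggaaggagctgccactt
Odc1: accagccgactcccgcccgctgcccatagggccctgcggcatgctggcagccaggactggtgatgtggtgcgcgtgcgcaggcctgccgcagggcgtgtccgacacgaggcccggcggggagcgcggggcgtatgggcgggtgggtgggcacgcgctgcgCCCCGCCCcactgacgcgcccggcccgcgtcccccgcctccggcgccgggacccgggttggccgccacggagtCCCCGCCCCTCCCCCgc
Mybl2: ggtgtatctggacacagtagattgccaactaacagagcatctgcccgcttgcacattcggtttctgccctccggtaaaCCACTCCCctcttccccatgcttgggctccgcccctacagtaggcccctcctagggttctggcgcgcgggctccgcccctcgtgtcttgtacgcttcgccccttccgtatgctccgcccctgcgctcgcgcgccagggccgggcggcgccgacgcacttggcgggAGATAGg
The GATA letters stood once in the Klf1, Epor and Mybl2 windows and not in that of Odc1, and 26.5% of 32841 such windows held them. CCNCNCCC stood at 4 places in the Epor window, at 4 in that of Odc1 and at 1 in that of Mybl2, and 45.9% of all windows held it. The letters were common, and a match is a description of the window and not a site. The Klf1 window held no CCNCNCCC. For Tfrc RefSeq holds 2 windows, which are not printed. Neither holds the GATA letters, and CCNCNCCC stood at 3 places in the upstream window and at 2 in the other. In the Epor window the GATA letters lie between its capital runs of CCNCNCCC.

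The 20 called genes with the largest spread, leaving out genes with flooded local background, had SDs of 0.26 to 0.49 and ranges of 0.57 to 1.11 log2 units, against a median range of 0.20 over all genes. They lay in 7 blocks of the membrane. Of the 20, 9 were lowest on replicate 1 and 6 on replicate 4, against 21.8% and 19.8% of all genes. Highest on replicate 1 were 6, on replicate 3 were 6 and on replicate 5 were 5, against 25.8%, 15.6% and 19.8%. Without an offset the same 20 SDs ran from 0.49 to 1.43. Of the 20, 16 were called under every one of the 11 other settings, and the exceptions were Prkcb, Ctsb, Blk and Itga4.

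A second pattern separated replicates 1 and 2 from the rest. Zfhx3, a large homeodomain transcription factor, had the largest spread of these 20 genes, with levels of 6.39, 6.46, 7.46, 7.30 and 7.08 on replicates 1 to 5 (SD 0.49, adjusted p = 6.9e-07). Its duplicate spots differed by an SD of 0.064. Ccna1, a cyclin known mainly from male germ cells, was the gene most like it (0.14 log2 units), with levels of 5.96, 5.95, 6.60, 6.63 and 6.62 (SD 0.36, adjusted p = 3.44e-05). Zfhx3 and Ccna1 were thus low on replicates 1 and 2 and high on the other 3 arrays, with no overlap. Next in likeness to Zfhx3 came Irf2, an interferon-regulatory transcription factor, at 0.21, which lay in the same membrane block as Zfhx3 and had flooded background.

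Another set among the 20 genes was highest on replicate 1. Il2rg, the receptor chain shared by interleukin-2 and related cytokines, had levels of 7.38, 7.02, 6.82, 6.69 and 6.67 on replicates 1 to 5 (SD 0.29, adjusted p = 4.61e-05). Prkcb, the protein kinase C form that relays B cell receptor signals, had 6.60, 6.46, 6.17, 6.21 and 5.87 (SD 0.28, adjusted p = 0.000492). Tank, an adaptor of NF-kB signalling, had 6.95, 6.71, 6.57, 6.42 and 6.20 (SD 0.28, adjusted p = 6.17e-05). For all of these replicate 1 was highest, replicate 2 next and replicate 5 lowest. Gna13, a G protein subunit, had 6.42, 6.10, 5.90, 5.75 and 5.79 (SD 0.28, adjusted p = 3.7e-05). Blk, a B cell Src-family kinase, had 7.13, 6.47, 6.51, 6.72 and 6.51 (SD 0.27, adjusted p = 0.000547), so that replicate 1 alone stood apart. Without replicate 1 the Blk SD was 0.11 and its call was lost (adjusted p = 0.219), while the SDs of Il2rg and Gna13 were 0.16 each and both were still called (adjusted p = 0.0206 and 0.0108). Prkcb and Blk were also not called with no offset (adjusted p = 0.141 and 0.0869). The pair of highest and lowest array most common among called genes was replicate 1 highest with replicate 5 lowest, which held 20 of 158 called genes (12.7%) and 52 of all 597 (8.7%).

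**Figure D3:**
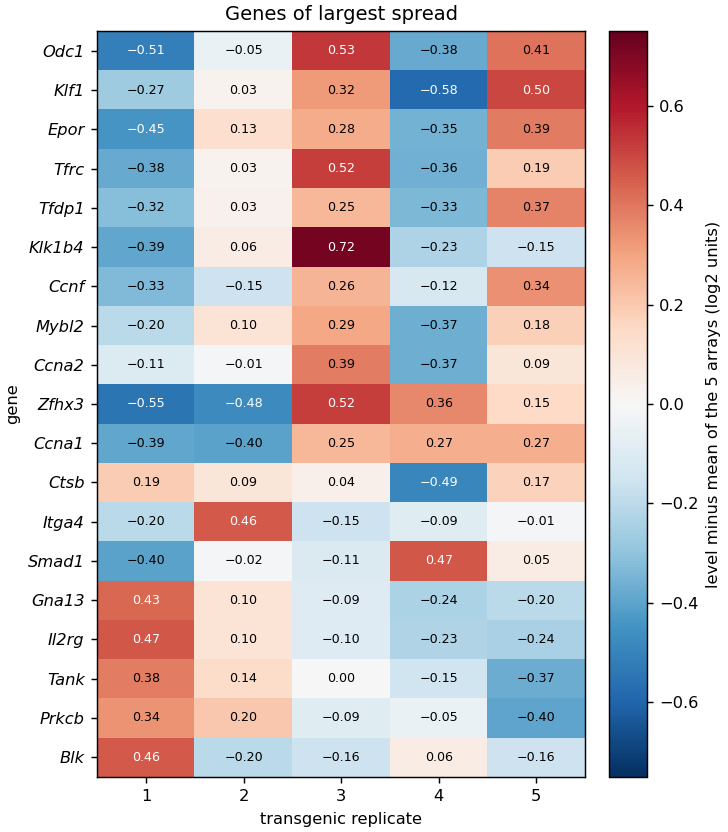
Deviation of each level from the mean of the 5 arrays (log2 units, colour and printed value) for 19 of the 20 called genes of largest spread, with transgenic replicates 1 to 5 as columns. Rows are ordered by the sum of the values on replicates 3 and 5 less those on replicates 1 and 4. Odc1, Klf1, Epor, Tfrc and Tfdp1 at the top are below the mean on replicates 1 and 4, and Blk, Prkcb, Tank, Il2rg and Gna13 at the bottom are highest on replicate 1.

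Some genes owed their place to a single array. Ctsb, a lysosomal protease, had levels of 7.17, 7.07, 7.02, 6.49 and 7.16 on replicates 1 to 5 (SD 0.28, adjusted p = 3.71e-05), and without replicate 4 its SD was 0.072 with an adjusted p of 0.323. Itga4, the integrin alpha 4 chain that lymphocytes use to leave blood vessels, had 6.28, 6.95, 6.33, 6.39 and 6.48 (SD 0.27, adjusted p = 8.76e-05), and without replicate 2 its SD was 0.088 with an adjusted p of 0.169. Klk1b4, a member of the large and similar kallikrein family whose copies can cross-hybridise, had 5.85, 6.29, 6.96, 6.01 and 6.08 (SD 0.43, adjusted p = 1.4e-06). Without replicate 3 the Klk1b4 SD was 0.17 and the call held (adjusted p = 0.00811). Smad1, a transducer of bone morphogenetic protein signals, had 5.73, 6.12, 6.02, 6.60 and 6.19 (SD 0.31, adjusted p = 1.24e-05), and without replicate 4 its SD was 0.20 and the call held (adjusted p = 0.00227).

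The marker lists of other spleen cells moved less than the erythroid list and in other orders. The mean level of the 4 erythroid genes ranged over 0.62 log2 units between arrays, and those of the B cell, T cell, myeloid and stromal lists over 0.19 to 0.22. Of 5 measured genes of the T cell list 3 were called (60%). The share was 26.5% of all genes and 34.97% of those above background on all 5 arrays. Of the 5, 4 were highest on replicate 4, as were 126 of all 597 genes (21.1%). Cd4, the helper T cell co-receptor, had levels of 6.21, 5.99, 6.11, 6.38 and 5.97 (SD 0.17, adjusted p = 0.00415), and Cd2, a T cell adhesion receptor, had 6.42, 6.55, 6.52, 6.83 and 6.50 (SD 0.16, adjusted p = 0.00415). Lck, the kinase of the T cell receptor, had 5.92, 6.18, 6.08, 6.20 and 5.92 (SD 0.14, adjusted p = 0.0193). Replicate 4 was the highest for all of these, and without it none of the 5 T cell genes was called by limma and 2 had an unadjusted p below 0.05, while that fit called 127 genes in all. Cd3d and Cd7, T cell genes on the membrane but not in the list, did not peak on replicate 4. Cd3d had 6.25, 6.26, 6.18, 6.24 and 6.24 on replicates 1 to 5. Cd7 had 6.07, 5.97, 6.01, 5.92 and 5.99, lowest on replicate 4.

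Replicate 4 was also the most frequent highest array of the integrin and adhesion list. Of its 16 measured genes 8 were called (50%, against 26.5% of all). Above background on all 5 arrays were 13 of the 16, and of all such genes 34.97% were called. Of the 16, 10 were highest on replicate 4, against 21.1% of all genes, and 7 lowest on replicate 5, against 21.3%. The called members were Itgal, Itga4, Pecam1, Itga6, Cd44, Itgb1, Icam1 and Selplg. Itga6, a laminin receptor chain, had levels of 6.52, 6.31, 6.33, 6.74 and 6.29 (SD 0.19, adjusted p = 0.00581). Itgb1, the common beta chain, went another way, with 6.51, 6.46, 6.97, 6.78 and 6.80 (SD 0.21, adjusted p = 0.00149). Without replicate 4 the SD of Itga6 was 0.098 and its call was lost (adjusted p = 0.283 in limma). The list then had 4 called members, while that fit called 127 of all 597 genes. With no offset the list had 2, against 48 of all 597 genes. Replicate 4 also had the highest median signal above background, 18.7 grey levels, and the part of this in the T cell and adhesion values was not tested.

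Of 5 B cell genes 3 were called (60%). The share was 26.5% of all genes and 34.97% of those above background on all 5 arrays. With no offset limma called none, and 2 had an unadjusted p below 0.05, while that fit called 48 of all 597 genes. Cd22, the mouse counterpart of the transgene's gene, had levels of 6.93, 6.84, 6.60, 6.89 and 6.66 on replicates 1 to 5 (SD 0.15, adjusted p = 0.00642). Its signals above background were 76, 63, 60, 76 and 42 grey levels. Whether its spots take up RNA of the transgene is not stated in the labels. Replicates 1 and 4, which were the lowest for Klf1, Epor and Tfrc, were the highest for Cd22, and replicates 3 and 5 were the lowest. Pax5, the B cell identity factor, had 7.04, 7.19, 6.94, 7.04 and 7.37 (SD 0.17), but its local background was flooded, and without replicate 5 its SD was 0.097 and the call was lost (adjusted p = 0.11). The mean of the 5 B cell genes was 6.68, 6.57, 6.47, 6.66 and 6.55.

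Of 6 myeloid genes 3 were called (50%). The share was 26.5% of all genes and 34.97% of those above background on all 5 arrays. Csf1r, the receptor that maintains macrophages, had 7.23, 7.49, 7.42, 7.42 and 7.15 on replicates 1 to 5 (SD 0.14, adjusted p = 0.0183). Csf3r, the granulocyte growth factor receptor, had 6.13, 5.91, 5.89, 6.13 and 5.84 (SD 0.14, adjusted p = 0.0068), and Cd14, a receptor for bacterial lipopolysaccharide, had 6.64, 6.61, 6.70, 6.90 and 6.61 (SD 0.12, adjusted p = 0.0358). These 3 genes did not share a highest array. Without replicate 4 the SD of Cd14 was 0.040 and its call was lost (adjusted p = 0.803), and without replicate 5 that of Csf1r was 0.094 and its call was lost (adjusted p = 0.169). With no offset limma called none of the myeloid list, with 1 at an unadjusted p below 0.05. That fit called 48 of all 597 genes. After centring on membrane neighbours 1 of the list was called, against 169 of all 597 genes. Of 5 stromal and endothelial genes 1 was called (20%, against 26.5% of all genes), Pecam1, a vessel adhesion molecule. Pecam1 had 6.76, 6.66, 6.42, 6.80 and 6.60 (SD 0.15, adjusted p = 0.00359 in limma). Without replicate 3 its SD was 0.098 and its call was lost (adjusted p = 0.0829 in limma). Gzmb, the granule protease that was the only measured gene of the cytotoxic list, was not called.

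**Figure D4:**
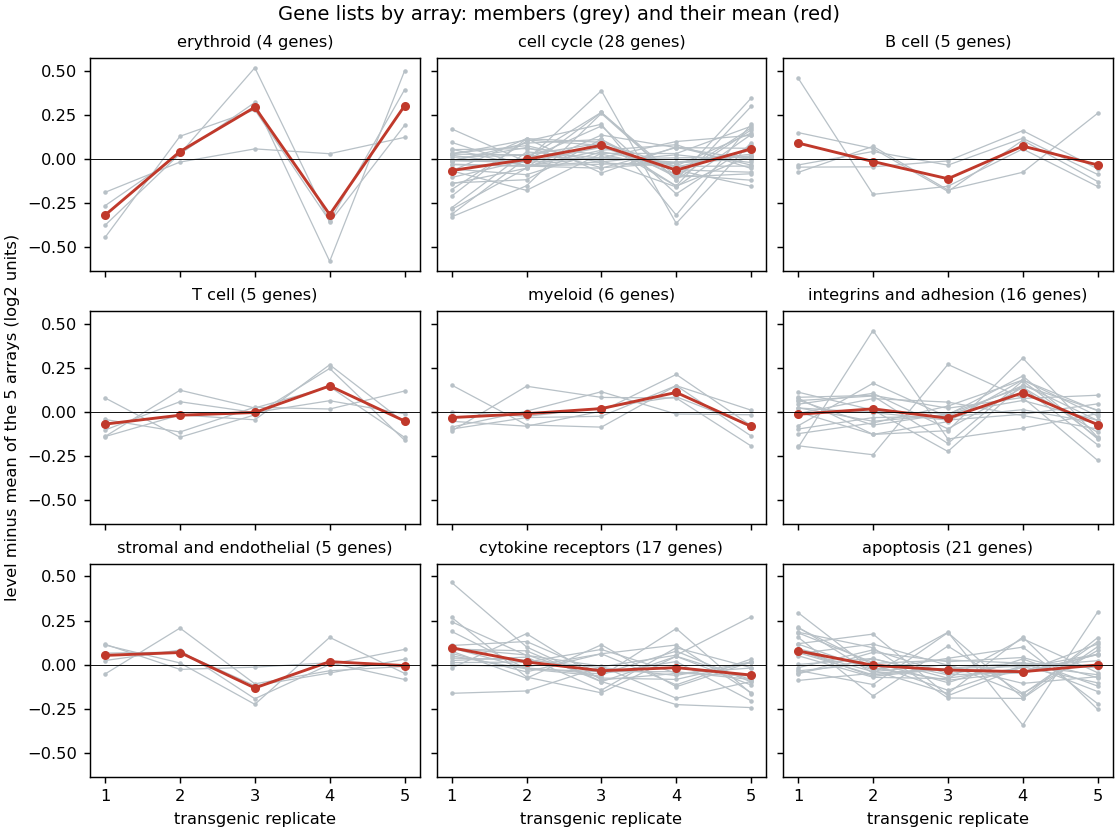
Deviation from the mean of the 5 arrays (log2 units, y axis) on transgenic replicates 1 to 5 (x axis) for 9 gene lists, with a grey line for each member and a red line for their mean. Lines join values of the same gene and imply no order of arrays. The erythroid mean ranges over 0.62 log2 units, and the B cell, T cell, myeloid and stromal means over 0.19 to 0.22.

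Among signalling lists, cytokine receptors had 7 of 17 members called (41.2%, against 26.5% of all genes), and 9 of the 17 were highest on replicate 1, as were 154 of all 597 genes (25.8%). Above background on all 5 arrays were 14 of the 17, and of all such genes 34.97% were called. Besides Il2rg, the called members were Cxcr4, Ccr2, Il5ra, Il7r, Il9r and Lifr. Without replicate 1 there were 4, while that fit called 113 of all 597 genes. Il5ra, the interleukin-5 receptor of B-1 cells and eosinophils, was highest on replicate 5, with 6.24, 6.25, 6.39, 6.45 and 6.67 (SD 0.18, adjusted p = 0.0105), and without replicate 5 its SD was 0.11 and the call was lost (adjusted p = 0.106). The apoptosis list had 8 of 21 called (38.1%, against 26.5% of all genes), and 10 of the 21 were highest on replicate 1. Above background on all 5 arrays were 18 of the 21, and the share of 38.1% was close to the 34.97% called among all such genes. Bcl2, which protects lymphocytes from death, had 6.64, 6.32, 6.19, 6.51 and 6.10 (SD 0.22, adjusted p = 0.000321), and the pro-death Bid had 6.87, 6.78, 6.50, 6.50 and 6.79 (SD 0.18, adjusted p = 0.0123). Without replicate 1 the apoptosis list had 4 called members, and Bid was not among them (adjusted p = 0.0543). Of 7 JAK-STAT genes 5 were called (71.4%, against 26.5% of all genes), including Stat3 with 5.83, 5.94, 6.13, 6.29 and 6.05 (SD 0.18, adjusted p = 0.00359) and Jak3 with 7.18, 6.99, 6.79, 7.19 and 7.04 (SD 0.16, adjusted p = 0.00464). Without replicate 5 there were 3 called members, while that fit called 144 of all 597 genes. The call of Stat3 was lost without replicate 4 (adjusted p = 0.0664) and that of Jak3 without replicate 3 (SD 0.11, adjusted p = 0.0867).

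The immediate early genes, which respond within minutes to handling and stimulation, had 4 of 11 called (36.4%, against 26.5% of all genes) and a median SD of 0.077, close to that of all genes. Jun was the most variable of them, with 5.93, 5.93, 6.10, 6.46 and 5.93 on replicates 1 to 5 (SD 0.23, adjusted p = 0.000197). Replicate 4 alone was high, and without it the SD of Jun was 0.084 with an adjusted p of 0.222. Without replicate 4 the list had 2 called members, and likewise without replicate 5. Those fits called 127 and 144 of all 597 genes. Of 16 cytokine ligands 6 were above background on all 5 arrays, against 71.9% of all genes, and 4 were called (25%, against 26.5% of all genes), with a median SD of 0.051 over the 16. Without replicate 1 limma called none of them, and 3 had an unadjusted p below 0.05, while that fit called 113 of all 597 genes.

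The least variable genes among the bright ones give the other end of the scale. The gene printed as Syk tyrosine-protein kinase had levels of 7.39, 7.33, 7.36, 7.41 and 7.30 (SD 0.042), and Csf2ra, the receptor chain for granulocyte-macrophage colony-stimulating factor, had 7.43, 7.40, 7.45, 7.51 and 7.35 (SD 0.061). Atm, a kinase of the DNA damage response, Pdia4, a protein-folding enzyme, and Nfkbia, the NF-kB inhibitor, had SDs of 0.058 to 0.059. None of these 5 passed the test, with adjusted p of 0.277 to 0.809 in limma. They were picked for small SD, so this outcome was close to fixed in advance and nothing is concluded from it. The 7 genes of nervous system, liver and gut had SDs of 0.027 to 0.074. Of these limma called none, against 26.5% of all genes, with 0 at an unadjusted p below 0.05. With no background correction 3 of them were called, against 306 of all 597 genes. Of the 9 housekeeping genes of the membrane, Odc1 and phospholipase A2 were called, against 26.5% of all genes. Phospholipase A2 lay on flooded background. The phospholipase A2 call was lost under 8 of the 11 other settings, and its SD of 0.38 was 0.090 without replicate 3. Gapdh, an enzyme of glycolysis, had 7.31, 7.42, 7.21, 7.46 and 7.46 (SD 0.11, adjusted p = 0.144), also on flooded background.

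Over all 597 genes, 42.9% of the variance between arrays lay along the first principal component and 27.2% along the second. The first component placed replicates 3 and 5 at scores of 1.93 and 1.96, replicate 1 at -2.61, and replicates 2 and 4 at -0.54 and -0.74. Odc1, Zfhx3, Klf1, Epor and Tfrc had the largest positive weights on it and Prkcb, Il2rg and Gsr, a glutathione-recycling enzyme, the largest negative weights, leaving out flooded genes. The second component set replicate 4 apart, at -2.67, from the others, which lay between -0.00050 and 1.22. Among the 158 called genes the array farthest from the mean of the other 4 was replicate 1 for 47 genes (29.7%), replicate 4 for 36, replicates 3 and 5 for 29 each and replicate 2 for 17. Replicate 1 was likewise the farthest for 167 of all 597 genes (28.0%). Called genes were found in all 6 blocks of the main field, from 22.4% to 29.6% of the genes in a block.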

How the data were processed

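Per the labels, splenocyte RNA was made into 32P-labelled cDNA and read on mouse cDNA membranes. The authors deposited intensity values, which per the file headers are mean grey levels of spots and of the background ring around them, segmented automatically and not normalized. The number of arrays limits the precision. The authors' deposited table of 588 processed values per array, taken as log2 from its range, names no genes that could be matched and was used only for the share of its first component.

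Background was corrected by normexp (offset 50 grey levels, fitted on all spots), and the 5 arrays were quantile normalized over the spots of 597 genes, leaving out 126 unnamed spots. limma 3.58.1 in R 4.3.3 tested array differences by a moderated F, with the 2 spots of a gene as observations, Benjamini-Hochberg adjustment over 597 genes and a threshold of 0.05. A gene was above background where at least 1 of its spots had code 0, a code that the headers do not explain. It was flooded where local background exceeded 100 grey levels at either spot on any array (29 genes). Symbols were matched by hand for 548 genes. The test was checked on simulated data.

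The arrays, gene lists and rules were chosen with earlier results of these data known. Named were Cd22, the 20 called genes of largest SD without flooding, the 5 of smallest SD among the brightest genes (the top 25% by mean level), up to 3 members of largest SD per list of at least 3 measured genes, the 3 genes nearest to each of the first 5, and the housekeeping genes; not all are described, and some items are left out here. Nfe2, Ccnb1, Cdkn1b, Cdkn2d, Gsr and other list members were named after their values were seen. Alternatives were median centring, cyclic loess, other background corrections and offsets, a term for spot position, a trended prior, neighbourhood centring over 5 by 5 positions, leaving out dim or flooded genes or each array, all 7 transgenic arrays, and the authors' table.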

Additional observations from a re-analysis of the deposited data

Results flagged for a closer look

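Among 115 named genes and list means searched, 7 had a single array far from the other 4. Chance alone flags about 1 in 20 such groups, so 5.75 would be expected, and no reading is placed on the number. Ctsb was low on replicate 4, at 6.49, with the others between 7.02 and 7.17. Itga4 was high on replicate 2, at 6.95, with the others between 6.28 and 6.48. Nfkbia was high on replicate 4, at 6.45, with the others between 6.30 and 6.33. The housekeeping gene phospholipase A2, with flooded background, was low on replicate 3, at 6.29, with the others between 7.04 and 7.23. Also among the housekeeping genes, myosin I was low on replicate 4, at 5.72, with the others between 5.90 and 5.95, and Rps29, with flooded background, was high on replicate 4, at 5.86, with the others between 5.69 and 5.73. The mean of the homeobox list was low on replicate 1, at 6.02, with the other arrays between 6.08 and 6.10.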

How the results depend on the processing

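Background correction moved the number of called genes most: 306 with none, 50 with subtraction and a floor, and 48 with no offset, of which 140, 43 and 42 were among the 158. Under the other alternatives with all 5 arrays or more the number ran from 146 to 203. Leaving out 1 array gave 113 to 152 genes. Called members of all lists, 85 of 235, became 137, 27 and 28 under the same 3 background settings. The median ratio of spreads, 1.55, was 1.76 with median centring, 2.05 with no background correction and 1.76 over genes above background on all 5 arrays, and 1.40 to 1.69 with 1 array left out. The share of the first component, 42.9%, was 37.5% with median centring and 37.3% over all 7 transgenic arrays, 41.8% in the authors' table, and 44.4% to 57.9% with 1 array left out. The share of called genes farthest on replicate 1, 29.7%, was 22.8% with median centring, 40% with subtraction, 39.6% with no offset and 29.8% to 42.1% with another array left out. Leaving out or adding arrays changes how many components there are and how many arrays can stand farthest. Those shares are therefore not directly comparable with the shares over 5 arrays. The cause of the other changes was not tested. Of 322 list counts under alternatives, 238 stayed within 1.5 times. For named genes, subtraction and no offset changed the most calls. Signal over background limits what dim genes show: 8 of the 168 genes not above background on all 5 arrays were called. No paired analysis was possible because all 5 arrays belong to a single group and their numbers follow the order of the records.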
